A study of Mus musculus with 12 samples.

Results

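The GABA-A receptor genes examined here were Gabra2, Gabra3, Gabra4, Gabra5, Gabrb1, Gabrb2 and Gabrd, 7 of the 19937 genes that had their own probe set. They were chosen by name, as the probe sets whose only gene symbol was one of these. The choice was made with earlier results of these data known, so counts of these genes beside all tested probe sets are a description. A gene with several probe sets was represented by its brightest probe set on average across all arrays. Gabrb2 had 3 probe sets and each of the other genes had 1, 9 probe sets in all. The study sorted GFP-positive neurons from the postnatal mouse cortex and hybridized their RNA to Affymetrix arrays to compare pyramidal cells and interneurons while cortical circuits are being wired.

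All mice were of the C57BL6 strain and carried RCE:LoxP, a reporter that turns on GFP in cells with a history of Cre. Pyramidal cells came from the somatosensory cortex of NexCre;RCE mice and were taken at birth (Pyr P0) or at P12 (Pyr P12). Interneurons came from the cortex of Nkx2-1Cre;RCE mice, again at birth (IN P0) or at P10 (IN P10). Each of these 4 groups had 3 arrays, which the labels name biological replicates A to C, and whether a replicate held cells of 1 animal or of several was not given in the sources used here. Nex, also called Neurod6, is active in young excitatory neurons, and Nkx2-1 marks progenitors of the medial ganglionic eminence, so the reporter follows a lineage and also labels other cells that descend from those progenitors. The older groups differed by 2 days of age. Any difference between IN P10 and Pyr P12, or between the changes with age in the 2 populations, holds that difference as well. The dissected region named in the labels and the Cre line also differed between the populations, and their part in a population difference cannot be told apart.

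GABA-A receptors are chloride channels built from 5 subunits around a pore. Most contain α and β subunits, between which GABA binds, together with a γ or a δ subunit. The subunits decide the kinetics, the drug sensitivity and the place of the receptor: receptors with α2 or α3 and a γ subunit are known mostly from synapses, whereas α5 receptors and those that pair α4 with δ are known mostly from outside the synapse, where they carry tonic inhibition. Many subunit genes lie side by side in clusters, and their expression in the rodent forebrain is known to shift during the first postnatal weeks.

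Values are RMA values on a log2 scale, so that a difference of 1 is a 2-fold difference. A gene was called changed when the adjusted p of limma was under 0.05 and the fold change over 2, and the adjustment was made over 22961 probe sets with a gene symbol. A probe set's value depends on its probes, so levels were set side by side only within a gene, never between genes. Over the 12 arrays, the background level, taken from olfactory and vomeronasal receptor probe sets, lay between 7.13 and 7.45. The 7 subunit genes were above it on every array of every group. With the stricter 99th percentile of the same receptor probe sets, 26 of 28 combinations of gene and group were above it on all 3 arrays, and the exceptions were Gabra4 in IN P0 and Gabrd in Pyr P0.

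The sorted populations carried the markers of their labels, with traces of other cells. Gad1, which encodes a GABA-synthesizing enzyme, averaged 12.69 in IN P0 and 13.24 in IN P10, while the pyramidal means were 9.58 at P0 and 8.49 at P12. Neurod6 averaged 12.31 in Pyr P0 and 10.76 in Pyr P12, was still at 9.85 ± 0.35 (SD, n = 3) in IN P0, and was not above background on any IN P10 array. All 8 genes of a list of oligodendrocyte precursors were called higher in the interneuron groups at both ages, and their summed level was 13.43 to 13.76 in IN P0 and 13.09 to 13.79 in IN P10, beside 10.89 to 11.28 over the pyramidal arrays. In sorted bulk samples, fewer cells of a type and less RNA per cell cannot be told apart.

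Between P0 and the second postnatal week, Gabra4, Gabrb1 and Gabrd rose more than 3-fold in both populations. Gabrb2 rose 2.31-fold in interneurons and 1.61-fold in pyramidal cells, and no subunit gene fell. At both ages Gabra2, Gabra4 and Gabrb1 were more than 2-fold lower in interneurons than in pyramidal cells. Gabra3 was higher in interneurons, 2.28-fold at P0 and 1.61-fold at the older stage. Gabrd had nearly the same level in both populations at each age. In numbers, 4 of 7 genes were called higher in IN P10 compared with IN P0, where 4.19% of all tested probe sets were called higher and 2.85% lower. In Pyr P12 against Pyr P0, 3 of 7 were called higher, against 5.68% higher and 3.48% lower among all tested probe sets. The 2 age comparisons share no array.

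**Figure D1:**
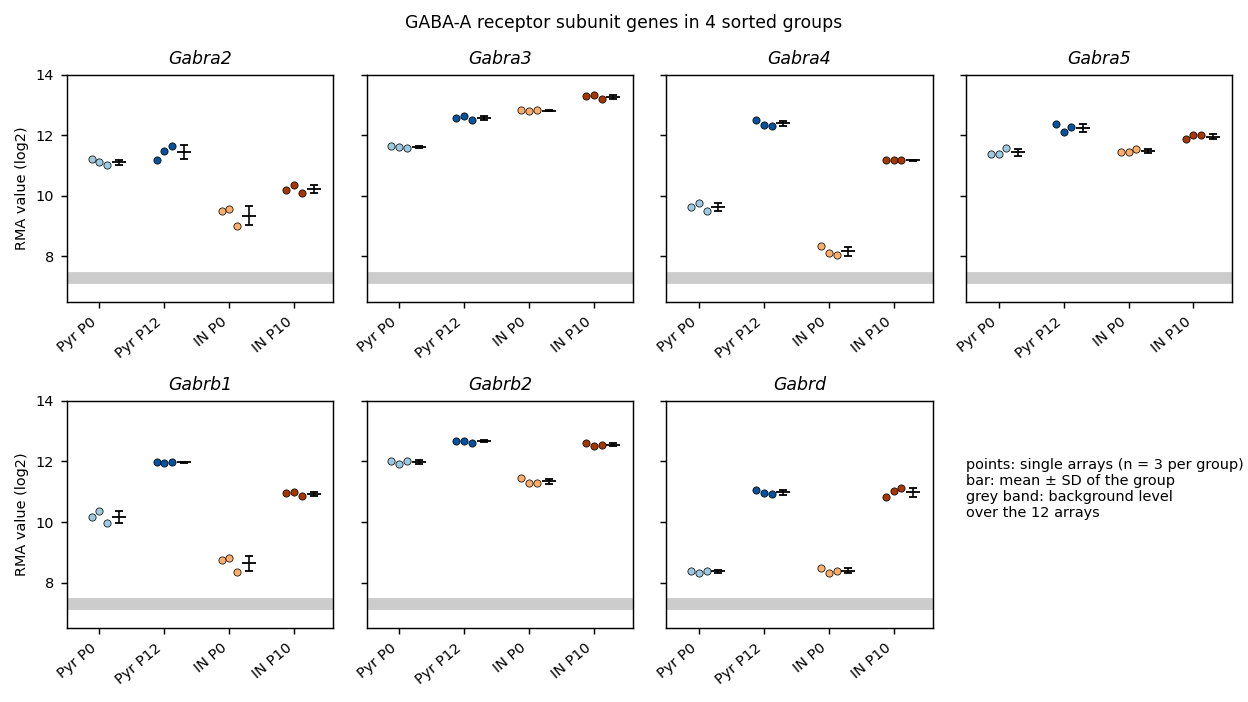
The RMA value (log2, vertical axis) of each of the 7 subunit genes is plotted for the 3 arrays of Pyr P0, Pyr P12, IN P0 and IN P10, with the group mean ± SD beside the points and the background level of the 12 arrays (7.13 to 7.45) as a grey band. The points of Gabra4, Gabrb1 and Gabrd at the older ages lie above those at P0 in both populations, and heights can be compared within a panel but not between panels.

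Gabra2 encodes the α2 subunit, which is frequent at inhibitory synapses of the forebrain. Its values were 11.20, 11.10 and 11.03 in Pyr P0 and 11.19, 11.49 and 11.65 in Pyr P12. In interneurons they were 9.49, 9.56 and 8.999 in IN P0 and 10.19, 10.36 and 10.10 in IN P10. The pyramidal arrays were all higher than the interneuron arrays, and the ranges of Pyr P0 and Pyr P12 overlapped. Gabra2 was 3.39-fold lower in IN P0 compared with Pyr P0 (log2 difference -1.76 ± 0.14, SE, limma adjusted p 4.05e-07) and 2.34-fold lower in IN P10 compared with Pyr P12 (-1.23 ± 0.14, adjusted p 8.29e-06). Its difference with age was 0.87 on the log2 scale in interneurons, which is under 2-fold and was not called although limma's adjusted p was 0.000137. In pyramidal cells the difference with age was 0.34, with a 95% interval of 0.03 to 0.64 and a limma adjusted p of 0.058.

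Gabra3 encodes the α3 subunit. Its values were 11.65, 11.63 and 11.59 in Pyr P0 and 12.58, 12.65 and 12.51 in Pyr P12. The interneuron arrays read 12.82, 12.78 and 12.84 at P0 and 13.28, 13.32 and 13.20 at P10. The 4 groups did not overlap, and the interneuron arrays of either age exceeded every pyramidal array. Gabra3 was 2.28-fold higher in IN P0 compared with Pyr P0 (1.19 ± 0.05, limma adjusted p 1.39e-09). It was the 1 subunit gene of the 7 called higher in interneurons. At the older stage the difference was 0.69 ± 0.05, or 1.61-fold, which passed the adjusted p of limma (1.71e-07) but not the 2-fold threshold. IN P0 was above Pyr P12 by 0.23 on the log2 scale (limma adjusted p 0.00189). The differences with age were 0.96 in pyramidal cells, just under 2-fold at 1.94, and 0.45 in interneurons.

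Gabra4 encodes the α4 subunit, which often pairs with δ in extrasynaptic receptors. Its values were 9.63, 9.75 and 9.49 in Pyr P0 and 12.49, 12.35 and 12.32 in Pyr P12. They were 8.35, 8.12 and 8.06 in IN P0 and 11.17, 11.17 and 11.19 in IN P10. The 4 groups were widely separated, with Pyr P12 highest and IN P0 lowest. Gabra4 rose 7.99-fold in interneurons (log2 difference 2.999 ± 0.08, limma adjusted p 1.13e-11) and 6.79-fold in pyramidal cells (2.76 ± 0.08, limma adjusted p 8.92e-12). It was 2.72-fold lower in IN P0 compared with Pyr P0 and 2.31-fold lower in IN P10 compared with Pyr P12. The value of IN P10 was therefore above that of Pyr P0, by 1.55 on the log2 scale, so that the order of the groups followed age first and population second.

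Gabra5 encodes the α5 subunit. Its values were 11.36, 11.39 and 11.57 in Pyr P0 and 12.37, 12.09 and 12.26 in Pyr P12. Interneurons had 11.44, 11.45 and 11.55 at P0 and 11.87, 12.00 and 12.00 at P10. The P0 groups overlapped, and both older groups lay above them. None of its differences reached 2-fold. The difference with age was 0.80 ± 0.08 in pyramidal cells and 0.47 ± 0.08 in interneurons, with limma adjusted p-values of 9.84e-07 and 0.000152. Between the populations it was 0.04 at P0, with a 95% interval from -0.13 to 0.21, and -0.29 at the older stage (limma adjusted p 0.00843).

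Gabrb1 encodes the β1 subunit. Its values were 10.16, 10.36 and 9.98 in Pyr P0 and 11.98, 11.94 and 11.98 in Pyr P12. They were 8.75, 8.81 and 8.37 in IN P0 and 10.96, 10.99 and 10.85 in IN P10. The groups stood in the same order as those of Gabra4, with no overlap. Gabrb1 rose 4.89-fold in interneurons (2.29 ± 0.11, limma adjusted p 1.53e-09) and 3.49-fold in pyramidal cells (1.80 ± 0.11, limma adjusted p 9.09e-09). It was 2.87-fold lower in IN P0 compared with Pyr P0 and 2.05-fold lower in IN P10 compared with Pyr P12. The last of these lay close to the threshold, since without IN P10 replicate C the log2 difference was -0.99 and the gene was no longer called.

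Gabrb2 encodes the β2 subunit, the β subunit of the common receptor of the adult brain. Its values were 12.02, 11.92 and 12.00 in Pyr P0 and 12.68, 12.68 and 12.62 in Pyr P12. They were 11.45, 11.30 and 11.29 in IN P0 and 12.61, 12.51 and 12.55 in IN P10. IN P0 was the lowest group, and the older groups almost met. Gabrb2 rose 2.31-fold in interneurons (1.21 ± 0.06, limma adjusted p 1.29e-09). In pyramidal cells the difference was 0.68 ± 0.06, or 1.61-fold, with a limma adjusted p of 2.08e-07, and was not called. At P0 it was -0.63 in interneurons against pyramidal cells, under 2-fold, and at the older stage -0.11, with a 95% interval from -0.23 to 0.02 and a limma adjusted p of 0.148. The other 2 probe sets of Gabrb2 gave log2 differences with age of 1.56 and 1.27 in interneurons and 0.84 and 0.76 in pyramidal cells, which kept the same calls. At the older stage the third probe set gave -0.31 between the populations, with a limma adjusted p of 0.0234.

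Gabrd encodes the δ subunit, which takes the place of γ in receptors outside the synapse. Its values were 8.40, 8.33 and 8.39 in Pyr P0 and 8.49, 8.32 and 8.40 in IN P0, about 1 log2 unit above the background level. They were 11.07, 10.96 and 10.92 in Pyr P12 and 10.83, 11.01 and 11.12 in IN P10. The populations overlapped at either age, and the ages were far apart. Gabrd rose 6.01-fold in interneurons (2.59 ± 0.07, limma adjusted p 1.88e-11) and 6.09-fold in pyramidal cells (2.61 ± 0.07, limma adjusted p 6.70e-12). The difference between the populations was 0.03 at P0, with a 95% interval from -0.13 to 0.19, and 0.01 at the older stage, from -0.15 to 0.17.

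Counts of the adjusted p alone, at any fold, were higher. In interneurons 7 of 7 genes had an adjusted p under 0.05 toward higher values at P10, where 22.3% of all tested probe sets did. In pyramidal cells 6 of 7 did toward P12, where 33% of all tested probe sets did, and Gabra2 was the exception. The median log2 difference with age of the 7 genes was 1.21 in interneurons and 0.96 in pyramidal cells, beside medians of 0.00 and 0.06 over all tested probe sets. Other cells moved with these comparisons too. Of 7 genes of a myelinating oligodendrocyte list, 3 were called higher in IN P10 compared with IN P0, and the summed level went from 11.31 to 11.44 in IN P0 to 12.56 to 13.00 in IN P10. Of 7 pyramidal cell markers, 3 were called lower in IN P10 compared with IN P0, the summed level being 12.82 to 13.16 in IN P0 and 11.72 to 11.81 in IN P10. The largest term of that sum in both interneuron groups was Bcl11b, with 11.49 in IN P0 and 10.67 in IN P10. Bcl11b was lower in the pyramidal groups, with 10.87 at P0 and 9.73 at P12, so this sum is not a measure of pyramidal cells alone. In pyramidal cells the summed level of 8 astrocyte genes was 10.63 to 10.71 at P0 and 13.01 to 13.06 at P12. There Slc1a2 (8.55 at P0 and 12.72 at P12), which made up most of the sum at P12, and Aldh1l1 were called higher. Slc1a3 differed the other way, with 8.43 at P0 and 7.97 at P12 and under 2-fold, while Aqp4 and Gja1 were not above background in any group. Several interneuron markers were also lower in Pyr P12 compared with Pyr P0, where 5 of 7 pan-interneuron genes and 3 of 7 markers of ganglionic eminence (MGE) interneurons were called lower. The summed pan-interneuron level was 11.69 to 12.22 at P0 and 10.54 to 10.69 at P12. The summed MGE level did not fall, with 12.84 to 13.17 at P0 and 13.02 to 13.06 at P12. Its member Satb1 went the other way, from 11.97 to 12.71. The part of these other cells in the subunit differences was not tested.

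Between the populations, 3 of 7 genes were called lower in IN P10 compared with Pyr P12 (Gabra2, Gabra4 and Gabrb1), where 2.91% of all tested probe sets were called lower and 2.65% higher. The same 3 genes were called lower in IN P0 compared with Pyr P0, where 1.74% of all tested probe sets were called lower, and Gabra3 was called higher, where 1.9% were. These 2 comparisons share no array, but they too take the spread from the same fit. The median log2 difference of the 7 genes was -0.29 at the older stage and -0.63 at P0, beside -0.07 and 0.00 over all tested probe sets. The oligodendrocyte precursor genes described above were higher in the interneuron groups at both ages, and Neurod6 and other pyramidal markers were above background in IN P0. The pyramidal markers did not all go 1 way. In IN P0 compared with Pyr P0, 5 of 7 were called lower, while Bcl11b was higher by 0.61 on the log2 scale. Slc17a7 lay near background in IN P0, at 8.02. The part of oligodendrocyte precursors and pyramidal cells in the population differences was not tested.

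**Figure D2:**
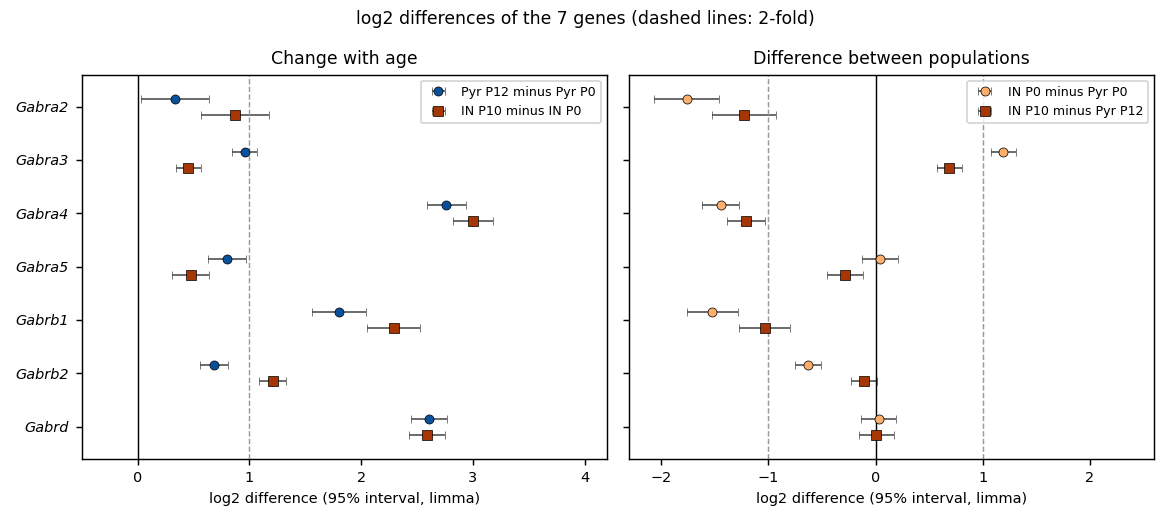
log2 differences of the 7 subunit genes with 95% intervals from limma (horizontal axis, log2), on the left with age (Pyr P12 minus Pyr P0, circles, and IN P10 minus IN P0, squares) and on the right between populations (IN P0 minus Pyr P0, circles, and IN P10 minus Pyr P12, squares), where dashed lines mark 2-fold. The age differences of Gabra4, Gabrb1 and Gabrd lie far beyond 2-fold in both populations, and on the right Gabrd lies at 0 and Gabra3 alone lies on the positive side with intervals that exclude 0.

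Whether the change with age differed between the populations was tested directly, as the change in interneurons minus the change in pyramidal cells. The change runs from P0 to P10 in interneurons and from P0 to P12 in pyramidal cells, so population and length of time cannot be told apart here. None of the 7 genes reached a 2-fold difference in this contrast, in which 2.24% of all tested probe sets were called higher and 2.63% lower. At any fold, Gabrb1 (0.49 ± 0.16, limma adjusted p 0.0282) and Gabrb2 (0.52 ± 0.08, limma adjusted p 0.000224) passed the adjusted p toward a larger change in interneurons, as 11.8% of all tested probe sets did. Gabra3 (-0.50 ± 0.07, limma adjusted p 0.000174) and Gabra5 (-0.33 ± 0.11, limma adjusted p 0.0371) passed it toward a larger change in pyramidal cells, as 20.3% of all tested probe sets did. The results for Gabrb2 and Gabra3 passed in each of 12 fits that left out 1 array. Those for Gabrb1 and Gabra5 did not pass in 4 and 8 of them, with adjusted p-values up to 0.0723 and 0.0919. The difference was 0.24 for Gabra4, with a 95% interval from -0.01 to 0.49, and -0.02 for Gabrd, from -0.25 to 0.21. For Gabra2 it was 0.53, from 0.11 to 0.96, with a limma adjusted p of 0.056.

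The 3 genes called lower in interneurons at both ages are neighbours on chromosome 5. In RefSeq's gene models of GRCm38.p6 1 other protein-coding gene lies between Gabra2 and Gabra4, and Gabra4 and Gabrb1 start head to head on opposite strands. The first annotated start of Gabrb1 lies 387 bases inside the Gabra4 gene, and a second start lies 41624 bases beyond the start of Gabra4. The gene models of Gabra4 and Gabrb1 thus overlap, and where the probes of either gene lie was not given in the sources used here. Upstream sequence is printed for these 3 genes because all 3 were called lower in interneurons, 250 bases before a start in each case, 5′ to 3′, with CpG dinucleotides in capitals. The window of the first Gabrb1 start lies within the Gabra4 gene and is not shown, and the Gabra4 stretch lies in turn within the Gabrb1 gene model. The sequences are RefSeq's, on build GRCm38.p6, at chr5:71658309-71658558 (minus strand) for Gabra4, chr5:71699682-71699931 (plus strand) for the second start of Gabrb1, and chr5:71095850-71096099 (minus strand) for Gabra2.
Gabra4: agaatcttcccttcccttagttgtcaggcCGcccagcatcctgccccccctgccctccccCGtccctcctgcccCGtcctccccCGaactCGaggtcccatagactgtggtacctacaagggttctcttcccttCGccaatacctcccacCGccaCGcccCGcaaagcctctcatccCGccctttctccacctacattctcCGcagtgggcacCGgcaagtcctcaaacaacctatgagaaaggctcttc
Gabrb1: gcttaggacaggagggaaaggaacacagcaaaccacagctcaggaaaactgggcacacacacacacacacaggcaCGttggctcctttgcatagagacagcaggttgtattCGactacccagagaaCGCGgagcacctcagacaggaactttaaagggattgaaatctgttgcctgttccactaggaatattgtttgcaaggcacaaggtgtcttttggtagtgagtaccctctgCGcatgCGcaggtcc
Gabra2: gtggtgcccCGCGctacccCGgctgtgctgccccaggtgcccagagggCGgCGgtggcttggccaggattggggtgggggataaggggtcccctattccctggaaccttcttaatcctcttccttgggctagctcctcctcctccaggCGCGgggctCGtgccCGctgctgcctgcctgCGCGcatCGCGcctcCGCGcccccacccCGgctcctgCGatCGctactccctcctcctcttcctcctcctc
The Gabra2 stretch holds 18 CpG dinucleotides and 70.0% G and C, that of Gabra4 12 and 61.2%, and that of Gabrb1 6 and 50.8%.

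Promoter windows of 300 bases, from 250 before to 50 after a start, were at hand for 6 of the 7 genes, 10 windows in all, and Gabrd had none. Over 32851 such windows the median was 52.7% G and C with 7 CpG dinucleotides. The single windows of Gabra2, Gabra4 and Gabra5 held 25, 12 and 13 CpG dinucleotides, and those of Gabrb1 25 and 9. The windows of Gabra3 held 0 CpG dinucleotides, with 39.3% and 43.0% G and C, whereas the windows of the other 5 genes held 9 to 25. Both Gabra3 windows, which overlap, and 1 of 3 Gabrb2 windows held TATAAA, the letters of the TATA box, as did 13.6% of all windows. The letters were searched on either strand and at any position, so a working TATA box is not shown. None of the 10 windows held TGACGTCA, the cyclic AMP response element (1.79% of all windows), GCGTGGGCG, an EGR motif (0.612%), or CAGCTG, an E-box (16.3%). The window of the second Gabrb1 start held CGCATGCG, the core of the motif of nuclear respiratory factor 1, which can be read near the 3′ end of the printed sequence and which 1.87% of all windows hold; this motif was searched after the sequence had been seen.

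The levels of Gabra4 and Gabrb1 moved together across arrays, with a Pearson r of 0.987 over 12 arrays. Gabra2 and Gabra4 had an r of 0.708. These values describe arrays that fall into 4 groups and share age and population, so no p is given. Gabra4 also had an r of 0.971 with Gabrb2 and 0.903 with Gabrd, and Gabrd one of 0.929 with Gabra5. The values of Gabra3 ran from -0.52 with Gabra2 to 0.59 with Gabrd. Gabra2 also had low values with Gabrd (0.35) and Gabra5 (0.43), and its highest was 0.80 with Gabrb1.

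**Figure D3:**
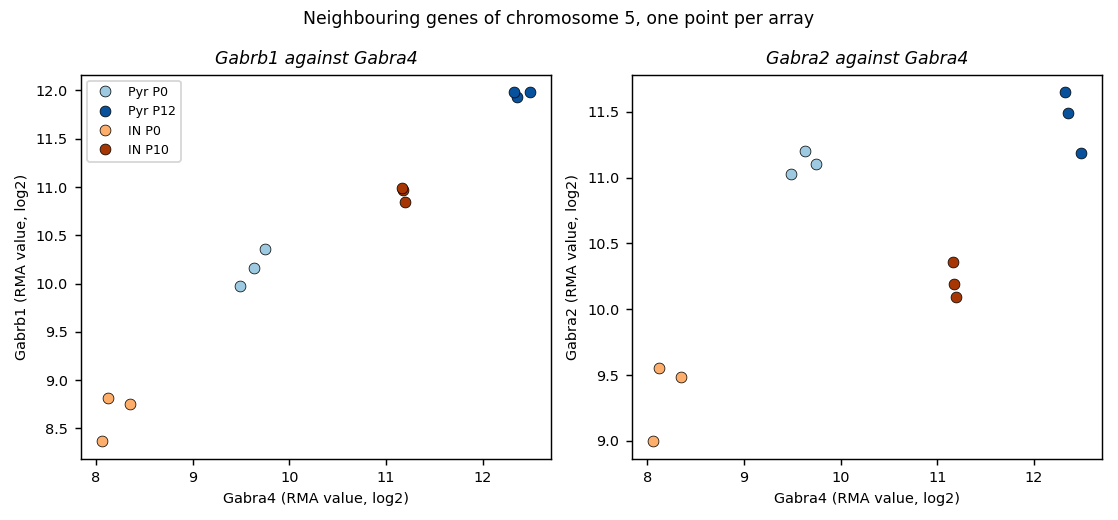
RMA values (log2) of Gabrb1 (left) and Gabra2 (right) are plotted against Gabra4, with 1 point for each of the 12 arrays, coloured by group. Gabrb1 climbs with Gabra4 from IN P0 through Pyr P0 and IN P10 to Pyr P12, whereas the Gabra2 values of IN P10 lie below those of Pyr P0.

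Among 14137 genes compared by Pearson r over the 12 arrays, those most like Gabra4 were Mal2 (r 0.998), Chgb (0.997) and Shisa4 (0.996), and those most like Gabrb1 were Pgm2l1 (0.997), Kcnq5 (0.996) and Pcp4 (0.993). Gabrd was most like Lgi3 (0.998), Mtfp1 (0.998) and Cpne6 (0.997). Gabrb2 was most like Kcnip4 (0.994), Slc6a17 (0.991) and Flot1 (0.9901). For Gabra2 these genes were Stx3, Ppp1r12b and Rspo3 (0.983 to 0.986), for Gabra3 Mef2a, Vstm2a and Dpp6 (0.991 to 0.994), and for Gabra5 Fam189a1, Deptor and Lrrc73 (0.985 to 0.991). With 4 groups of 3 arrays, any genes with the same order and spacing of the groups reach such values.

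Of the other subunit genes of the family, 9 with a probe set were measured, and 3 further ones were not analysed here. Gabrg3, which encodes a γ subunit and lies next to Gabra5 on chromosome 7, had the widest differences of these 9. It averaged 9.81 ± 0.21 in Pyr P0 and 11.50 ± 0.10 in Pyr P12 (SD, n = 3). Its interneuron means were 12.31 ± 0.08 at P0 and 13.09 ± 0.07 at P10. Its 4 groups stood in the order of those of Gabra3. Gabrg3 was 5.63-fold higher in IN P0 compared with Pyr P0 (limma adjusted p 3.06e-10) and 3.02-fold higher in IN P10 compared with Pyr P12 (limma adjusted p 1.01e-08). It rose 3.22-fold with age in pyramidal cells, and its difference with age in interneurons was 0.78 on the log2 scale, under 2-fold. Gabra5, its neighbour, differed by less than 2-fold in each of these comparisons.

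The other 8 were at or near background. Gabra6, Gabre, Gabrp, Gabrr1 and Gabrr3 were not above background on any array. Gabrq, which encodes the θ subunit and lies beside Gabra3 on the X chromosome, was not above background on any Pyr P0 array and averaged 7.85 in IN P10. Gabrg1, which lies beside Gabra2 on chromosome 5, averaged 7.51 and 7.57 in the pyramidal groups at P0 and P12 and 7.87 and 8.32 ± 0.27 in the interneuron groups at P0 and P10. Its difference between IN P10 and Pyr P12 was 0.75, or 1.68-fold (limma adjusted p 0.000123), not called, and of the opposite sign to those of Gabra2, Gabra4 and Gabrb1. On the same arrays the oligodendrocyte precursor gene Pdgfra averaged 10.57 in IN P10 and 7.71 in Pyr P12, and the part of such cells in the Gabrg1 value was not tested. Gabrr2 averaged 7.41 to 7.79 over the groups.

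**Figure D4:**
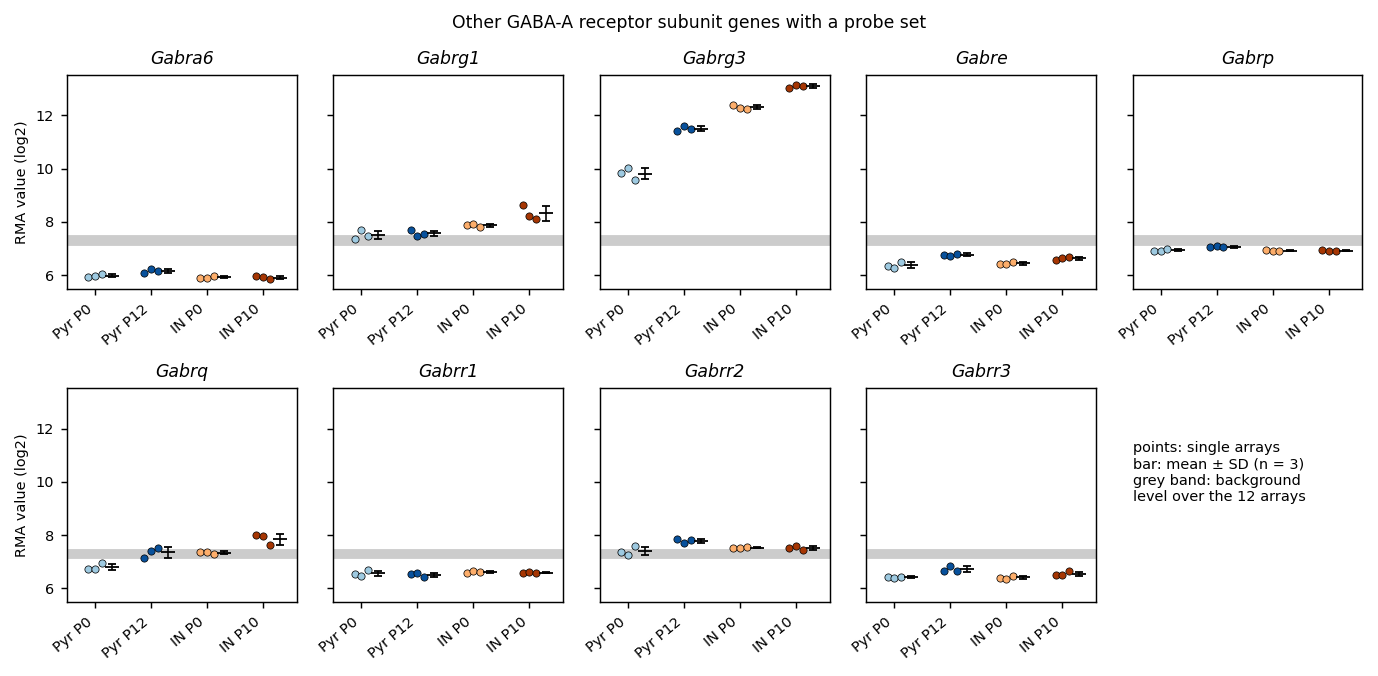
The RMA value (log2, vertical axis) of the 9 other subunit genes with a probe set is plotted for the 3 arrays of each group, with the mean ± SD and the background level as a grey band. Gabrg3 alone lies far above the band, from 9.81 in Pyr P0 to 13.09 in IN P10, and the other 8 genes lie below, in or just above it.

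Proteins that gather, assemble or carry GABA-A receptors were taken as a second list. Of its 28 measured genes, 2 were called higher and 0 lower in IN P10 compared with IN P0, and 3 higher and 0 lower in Pyr P12 compared with Pyr P0. Among all tested probe sets 4.19% and 5.68% were called higher in these comparisons and 2.85% and 3.48% lower. Between the populations, 1 was called higher and 1 lower at either stage, beside 2.65% higher and 2.91% lower among all tested probe sets at the older stage and 1.9% and 1.74% at P0. Nsf, an ATPase that takes part in the surface delivery of receptors, rose 3.17-fold in interneurons and 3.86-fold in pyramidal cells. Hap1, a partner of kinesin in receptor transport, rose 3.07-fold in interneurons and was 3.26-fold higher in IN P10 compared with Pyr P12. Slitrk3, an adhesion protein of inhibitory synapses, rose 5.01-fold in pyramidal cells, and was 5.07-fold higher in IN P0 compared with Pyr P0. Dmd, which encodes dystrophin of inhibitory postsynapses, rose 2.92-fold in pyramidal cells. Mdga1, an inhibitor of neuroligin 2, was 3.76-fold lower in IN P0 compared with Pyr P0 and 2.91-fold lower in IN P10 compared with Pyr P12. The changes of Slitrk3 and Dmd with age also differed between the populations, by -1.98 and -1.21 on the log2 scale (limma adjusted p 1.17e-08 and 1.39e-06), both larger in pyramidal cells.

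Of 6 genes of the metabotropic GABA-B receptor and its auxiliary subunits, 2 were called higher with age in either population, beside 4.19% of all tested probe sets in interneurons and 5.68% in pyramidal cells. Gabbr2, an obligatory subunit, rose 2.64-fold in interneurons and 2.36-fold in pyramidal cells. Kctd16, an auxiliary subunit, rose 2.42-fold in interneurons and 8.41-fold in pyramidal cells, a difference in change of -1.80 on the log2 scale (limma adjusted p 3.36e-06), and was 3.13-fold lower in IN P10 compared with Pyr P12. Kctd12 fell 2.66-fold in pyramidal cells and was 2.06-fold higher in IN P10 compared with Pyr P12. Of all tested probe sets, 3.48% were called lower in Pyr P12 compared with Pyr P0. Between IN P10 and Pyr P12, 2.65% were called higher and 2.91% lower in interneurons. None of the 6 genes was called different between the populations at P0, where 1.9% of all tested probe sets were called higher and 1.74% lower.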

How the data were processed

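RNA of sorted cells was amplified and hybridized to Affymetrix mouse gene arrays. The deposited log2 values were made by the authors with RMA, which corrects background, quantile-normalizes and summarizes probes. The RMA version, genome build and annotation release were not given in the sources used here. The lowest and highest values were 4.74 and 14.73. Arrays give no read depth, and 3 arrays per group limit the precision.

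The platform annotation named the probe sets, 22961 with a symbol being tested and 5231 without one left aside, and 1321 of these with several symbols were not named. All 7 symbols matched RefSeq. The 4 groups were fitted with limma 3.58.1 under R 4.3.3, no block being used, with Benjamini-Hochberg adjustment. The methods name SAM, used here as an alternative. The members and lists were chosen with earlier results of these data known. All 7 genes, the other subunits, and called partner and GABA-B genes (at most 4 per list and comparison) were named, with 3 genes by likeness. On each array, 1208 receptor probe sets gave the background level as their 95th percentile. The code was tested on simulated data. Alternatives were SAM, 2-group fits, limma-trend with robust eBayes, a replicate block, probe set filters, scalings, thresholds and leaving out arrays. Letters A to C were not taken as pairs in the main fit. Smallest exact permutation p for 3 against 3 arrays is 0.1. Figures used matplotlib 3.10.9 in Python 3.11.15.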

Additional observations from a re-analysis of the deposited data

Results flagged for a closer look

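The change with age differed between interneurons and pyramidal cells for 4 of the 7 subunit genes by limma's test of that difference, at an adjusted p under 0.05 and under 2-fold. Of all tested probe sets, 32.1% passed this adjusted p. The change in interneurons (P0 to P10) minus that in pyramidal cells (P0 to P12) was -0.50 on the log2 scale for Gabra3, -0.33 for Gabra5, 0.49 for Gabrb1 and 0.52 for Gabrb2. The 2 days between the older groups are part of these values. When each of the 12 arrays was left out in turn, the adjusted p was not under 0.05 in 4 fits for Gabrb1 and in 8 for Gabra5, and for Gabra5 also in 2 of 7 other alternatives.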

How the results depend on the processing

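With a fold threshold of 1.5, the subunit genes called with age in pyramidal cells numbered 6 in place of 3, all higher. The share of all tested probe sets called higher at 1.5-fold lies between 5.68%, at 2-fold, and 33%, at any fold. With no fold threshold the subunit genes called with age in pyramidal cells numbered 6, and those in interneurons 7 in place of 4. Those between IN P10 and Pyr P12 numbered 5 in place of 3, and those with a different change with age 4 in place of 0. At that threshold 54.7%, 45.5%, 46.6% and 32.1% of all tested probe sets passed in these comparisons, in the same order. The remaining 113 of 118 alternative counts stayed within 1.5 times. Of 836 alternative values of single genes, 805 kept direction and call, 19 gained a call through a lower fold threshold, and Gabrb1 lost 1, between IN P10 and Pyr P12, without IN P10 replicate C (-0.99).

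The direction changed only for Gabrd, whose values lay near 0. Its difference in the change with age (-0.02) was 0.0139 with arrays centred on their medians and 0.0191 after a second quantile normalization. Leaving out 1 array at a time it ran from -0.0871 to 0.0591, the difference between IN P10 and Pyr P12 from -0.0596 to 0.0865, and that between IN P0 and Pyr P0 from -0.0164 to 0.0706. The cause was not tested. For Gabra2 in Pyr P12 against Pyr P0 the value ran from 0.23 to 0.46 over the alternatives. Its adjusted p, 0.058 with all arrays, was under 0.05 in 4 of 9 alternatives (lowest 0.0052, the q of SAM) and in 2 of 12 fits that left out an array, those without Pyr P12 replicate A (0.0161) and IN P0 replicate C (0.0166), with a highest value of 0.218. For Gabrb2 in IN P10 against Pyr P12 it was under 0.05 in 2 of 11 alternatives, SAM (0.0213) and the third probe set (0.0234), and in 0 of 12 fits that left out an array.

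Of 18 same-letter pairs of deviations from the group means, 6 correlated over 0.1, in a range from -0.18 to 0.19. The median was 0.04 for same-letter pairs and -0.02 for other pairs. With 3 arrays per group, these correlations cannot settle whether the letters A, B and C pair samples. With the replicate block, 4 subunit genes were called with age in interneurons and 3 in pyramidal cells, the same counts as without it. Signal over background limits Gabra4 in IN P0 and Gabrd at P0, which lay about 1 log2 unit above it.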
